A study of Mus musculus with 12 samples.

Results

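Transcripts of 9 genes of the hair bundle, the mechanosensory organelle of cochlear hair cells, were followed with age in the mouse cochlea. The genes were Cdh23, Pcdh15, Tmie, Lhfpl5, Myo7a, Ush1c, Loxhd1, Xirp2 and Grxcr2, and every array probe annotated to 1 of these symbols was taken. This gave 20 probes out of 34885 probes with a single gene symbol, and 9 of the 19057 genes named by the annotation. Cochleae of C57BL6j mice without the vestibular organs were sampled at 4, 15 and 45 weeks of age. No treatment beyond laboratory ageing was recorded, and all groups shared the strain and tissue. The female transcript Xist read 8.56 and 7.60 in pool b at 4 and 45 weeks. It read 5.85 to 5.95 in the other pools, both 15-week pools included. Age and sex therefore cannot be fully told apart in comparisons with 15 weeks. Material was combined in fives (whether 5 cochleae or 5 mice is not settled by the labels), with 2 pools (a and b) per age, and each pool was hybridised to 2 technical arrays, giving 12 arrays. Pools served as replicates, 2 for each age. Levels are the authors' normalized log2 values, whose median was 5.89 on every array. P-values measure the spread between these pools.

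The hair bundle is a staircase of actin-filled stereocilia that converts sound into receptor current. Tip links made of cadherin 23 and protocadherin 15 join neighbouring stereocilia and pull on a transduction channel complex that contains TMC1 or TMC2 with TMIE and LHFPL5. Myosin VIIa and the scaffold protein harmonin, encoded by Ush1c, anchor the upper end of the link. LOXHD1 is required for mature transduction in mice, XIRP2 binds actin in stereocilia and in striated muscle, and GRXCR2 lies at the base of stereocilia. Mutations in these genes cause deafness or vestibular disease in mice, people or both. The C57BL6j strain carries the ahl allele of Cdh23, which is linked to its early hearing loss, and all 6 pools share it.

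None of the 9 genes passed the test in any comparison of ages. The patterns clearest over the arrays were readings of Grxcr2 and Lhfpl5 highest at 45 weeks and of Ush1c lower at 15 than at 4 weeks. Limma's linear model over the 3 ages, with Benjamini-Hochberg adjustment over 22640 tested probes, called 0 of 10 tested member probes in each comparison. The background was 0.0% of all probes in each comparison. At an unadjusted p under 0.05 the members counted 0 of 10 between 15 and 4 weeks, 1 of 10 between 45 and 4 weeks and 1 of 10 between 45 and 15 weeks. The background at that threshold was 1.33%, 13.9% and 8.15% of all tested probes. The members' counts therefore lay near the background. The largest difference among the tested member probes was 0.44 log2 units in size. In a cochlear pool, fewer hair cells and less RNA per hair cell cannot be told apart.

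Promoter sequences are shown for 3 of the members, chosen after their values were seen. These are Ush1c, whose 15-week arrays all lay below the 4-week arrays, Lhfpl5, whose 45-week arrays all lay above the younger ones, and Xirp2, whose levels split the pools of an age. The windows run from 250 bases before to 50 bases after the annotated start and were taken from RefSeq on the build GRCm38.p6. Capitals mark 2 motifs searched on both strands, which do not overlap in these windows. One is CTA and TAG with any 4 bases between them, a pattern that covers sites of the muscle factor MEF2, and the other is CAGCTG, a form of E-box bound by basic helix-loop-helix factors.
Xirp2, chr2:67445752-67446051, plus strand: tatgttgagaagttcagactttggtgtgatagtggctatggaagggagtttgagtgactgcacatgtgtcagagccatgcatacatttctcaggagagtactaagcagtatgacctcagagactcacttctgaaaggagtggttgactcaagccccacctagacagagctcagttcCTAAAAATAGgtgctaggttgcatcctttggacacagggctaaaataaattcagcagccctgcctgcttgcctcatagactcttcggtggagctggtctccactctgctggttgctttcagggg
Ush1c, chr7:46238441-46238740, minus strand: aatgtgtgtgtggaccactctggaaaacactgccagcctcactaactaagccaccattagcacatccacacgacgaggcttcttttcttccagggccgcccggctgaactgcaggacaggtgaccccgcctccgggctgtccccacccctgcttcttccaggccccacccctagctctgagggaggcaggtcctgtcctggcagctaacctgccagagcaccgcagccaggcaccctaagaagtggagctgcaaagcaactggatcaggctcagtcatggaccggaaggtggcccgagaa
Lhfpl5, chr17:28575469-28575768, plus strand: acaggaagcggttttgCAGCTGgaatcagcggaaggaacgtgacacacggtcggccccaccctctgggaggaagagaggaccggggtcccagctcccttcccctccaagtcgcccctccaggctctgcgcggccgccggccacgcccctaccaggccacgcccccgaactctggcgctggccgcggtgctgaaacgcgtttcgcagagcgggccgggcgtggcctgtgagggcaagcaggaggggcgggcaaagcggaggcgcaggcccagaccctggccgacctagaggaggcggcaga
The motifs were chosen after the sequences and pool levels were seen. The MEF2-type letters began at position -74 from the start in Xirp2. They were held by 1211 of 32851 promoters of this length (3.69%). CAGCTG was held by 16.3% of promoters. Among the 7 members whose promoters were searched, those of Pcdh15, Tmie, Lhfpl5 and Myo7a held it. The promoters of Loxhd1 and Grxcr2 were not searched. In these windows the channel subunit genes Tmie and Lhfpl5 had 39 and 28 CpG dinucleotides, against a median of 7.0 over all promoters, and Xirp2 had 1. A match of letters is a description and no evidence of binding.

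Readings of the array differed by probe, and 10 of the 20 member probes lay above the level filter, the median of all probe means (5.87). Each of the 9 members had at least 1 tested probe. The 10 untested probes had means between 5.46 and 5.81 and single readings between 5.31 and 6.01. For comparison, the Y-linked gene Eif2s3y had a level of 5.53 in the second pool of the 4-week age and 5.65 in that of the 45-week age, where the female transcript Xist read 8.56 and 7.60. Its level was 9.54 to 9.81 elsewhere. Another Y-linked gene, Uty, read 5.97 and 6.10 in those 2 pools, so that no single level marks absence of a transcript. Detection calls were not used here. The tested probes of Cdh23, Pcdh15 and Loxhd1 averaged 5.96, 6.01 and 5.87, near or below those readings of Uty. Their levels therefore cannot be told from background, and small differences between ages do not show stable expression. Among the untested probes the largest difference between ages was 0.21 in size, and in a fit of all probes the smallest p was 0.0720 (limma, adjusted p = 0.528).

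**Figure D1:**
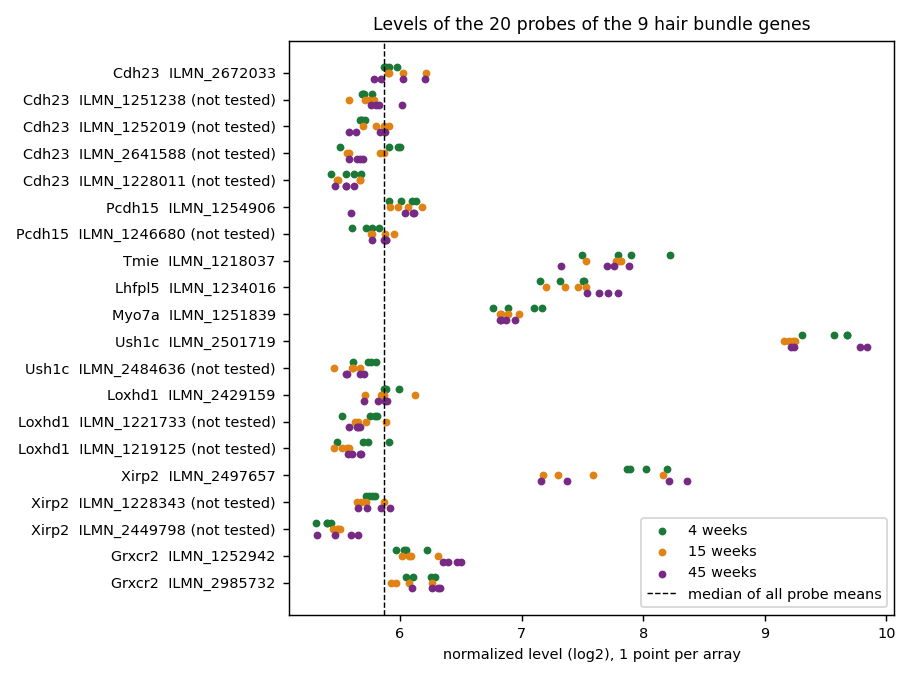
Normalized log2 level (horizontal axis) of each of the 20 member probes (rows), with 1 point per array coloured by age and a dashed line at the median of all probe means, 5.87. Most probes of Cdh23, Pcdh15 and Loxhd1 lie around or left of the line, whereas 1 probe each of Ush1c and Xirp2 lies far to the right of the gene's other probes.

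Different probes of a gene disagreed for Ush1c and Xirp2. For Ush1c, probe ILMN_2501719 averaged 9.43 and probe ILMN_2484636 5.65, although both are annotated to the same transcript record. For Xirp2, probe ILMN_2497657 averaged 7.78, whereas ILMN_1228343 averaged 5.76 and ILMN_2449798 5.46. At 45 weeks, where the bright probes of both genes split pools a and b, the dim Ush1c probe read 5.63 and 5.62, and the dim Xirp2 probes read 5.88 and 5.69 and 5.53 and 5.49. The 2 probes of Grxcr2 averaged 6.21 and 6.16. Where on the transcript the probes lie was not analysed here, and levels of different probes do not rank transcripts by abundance.

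Cdh23 forms the upper part of the tip link. Its tested probe, ILMN_2672033, read 5.94 and 5.88 at 4 weeks, 5.91 and 6.12 at 15 weeks and 5.94 and 5.997 at 45 weeks. The ages overlapped, and 45 weeks differed from 4 weeks by 0.06 (SE 0.12, 95% interval -0.24 to 0.35, limma adjusted p = 0.877). The other 4 probes of Cdh23 had pool means between 5.49 and 5.96. One of them, ILMN_2641588, read 5.61 and 5.68 at 45 weeks against 5.96 and 5.75 at 4 weeks, and another, ILMN_1251238, read 5.91 and 5.80 against 5.70 and 5.73. These untested probes thus pointed in opposite directions, each by less than 0.21 log2 units. They lie below the level filter and are annotated to different transcript records.

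Pcdh15, the lower part of the tip link, read 6.07 and 6.005 at 4 weeks, 5.99 and 6.09 at 15 weeks and 6.11 and 5.82 at 45 weeks on probe ILMN_1254906. The ages overlapped, and the low 45-week reading came from 1 array of pool b at 5.59, with the other array at 6.04. The difference of 45 from 4 weeks was -0.07 (SE 0.14, 95% interval -0.40 to 0.25). Its second probe, ILMN_1246680, read 5.88 and 5.83 at 45 weeks against 5.69 and 5.77 at 4 weeks. For both tip-link genes the median gap between arrays of a pool (0.13 for Cdh23 and 0.17 for Pcdh15) exceeded the median gap between pools of an age (0.07 and 0.09).

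Of the channel subunits, Tmie had its highest pool at 4 weeks and Lhfpl5 its highest pools at 45 weeks. Tmie read 8.06 and 7.64 at 4 weeks, 7.65 and 7.81 at 15 weeks and 7.52 and 7.82 at 45 weeks. The ages overlapped. The gap between the 4-week pools, 0.42, exceeded the range of the age means, 0.18. Tmie differed by -0.18 between 45 and 4 weeks (SE 0.18, 95% interval -0.61 to 0.25, limma adjusted p = 0.689).

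Lhfpl5 averaged 7.67 ± 0.11 at 45 weeks and 7.37 ± 0.06 at 4 weeks (SD, n = 2 pools each), and 7.39 ± 0.15 at 15 weeks. Its arrays read 7.63, 7.54, 7.79 and 7.71 at 45 weeks, against 7.20, 7.36, 7.53 and 7.46 at 15 weeks and 7.51, 7.15, 7.51 and 7.32 at 4 weeks. Every 45-week array lay above every younger array, while the 2 younger ages overlapped. The difference of 45 from 4 weeks was 0.30 (1.23-fold, SE 0.13, 95% interval -0.02 to 0.61), and limma did not call it (adjusted p = 0.385). The difference of 45 from 15 weeks was 0.28 (SE 0.13, adjusted p = 0.610).

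The anchoring proteins behaved differently over the pools. Myo7a, the myosin of the upper link density, read 6.99 and 6.97 at 4 weeks, 6.86 and 6.90 at 15 weeks and 6.83 and 6.91 at 45 weeks. Both older ages lay below the 4-week pools, by 0.10 to 0.11 log2 units on average, but the 4-week arrays ran from 6.76 to 7.17 and covered every older array. The 95% interval for 45 minus 4 weeks was -0.38 to 0.15.

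Ush1c, on its bright probe, was lower in both 15-week pools than in any other pool. The pools read 9.63 and 9.49 at 4 weeks, 9.21 and 9.20 at 15 weeks and 9.23 and 9.81 at 45 weeks. The 15-week arrays read 9.23, 9.20, 9.24 and 9.15, against 9.57, 9.68, 9.67 and 9.30 at 4 weeks, with no overlap. Among the members Ush1c was 1 of 10 with 15-week arrays all below the 4-week ones, and it was singled out after its values were seen. The background was 1.74% in that direction and 3.34% in either direction. The difference of 15 from 4 weeks was -0.35 (0.785-fold, SE 0.20, 95% interval -0.81 to 0.11) and was not called by limma (adjusted p = 1.00). At 45 weeks the pools disagreed by 0.585. Pool a read 9.22 and 9.24, as at 15 weeks, and pool b read 9.84 and 9.79, above every younger array. That pool b was 1 of the 2 pools with Xist and a dim Eif2s3y, and the part of sex in its readings was not tested. Markers of other tissues were also lower at 15 than at 4 weeks. Of 10 tested airway and ciliated epithelium markers 9 pointed lower (median -0.43), as did 15 of 15 muscle markers (median -0.64), with 0 called in either list. Lists of the cochlear epithelium pointed lower as well, by less. Lower were 9 of 11 hair cell body markers (median -0.09) and 13 of 19 other hair bundle genes (median -0.07). So were 7 of 10 supporting cell and otic epithelium markers (median -0.09). Over all 12595 genes 6714 pointed lower. The part of any of these tissues or cells in the reading of Ush1c was not tested. The dim probe ILMN_2484636 pointed the same way at 15 weeks, with pool levels of 5.53 and 5.64, against 5.69 and 5.77 at 4 weeks.

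Loxhd1 and Xirp2 act within the stereocilium. Loxhd1, on its probe just above the level filter, read 5.93 and 5.88 at 4 weeks, 5.86 and 5.92 at 15 weeks and 5.79 and 5.86 at 45 weeks. Its higher 45-week pool, at 5.8587, lay barely below the lowest younger pool, at 5.8592, and the arrays overlapped. The difference of 45 from 4 weeks was -0.08 (SE 0.11, 95% interval -0.35 to 0.19). The 2 dimmer probes of Loxhd1 had pool means between 5.51 and 5.80.

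Xirp2, on its bright probe, varied most between pools of 1 age. It read 7.96 and 8.03 at 4 weeks, 7.24 and 7.88 at 15 weeks and 7.27 and 8.29 at 45 weeks. The gap of 1.02 between the 45-week pools was larger than any difference between ages. Pool b at 45 weeks was also a pool with a raised Xist, and the part of sex was not tested. The 15-week pools lay below both 4-week pools, with a difference of -0.44 (SE 0.34, 95% interval -1.26 to 0.38, limma adjusted p = 1.00). In pool b at 15 weeks the technical arrays themselves read 8.17 and 7.59. Without pool b at 45 weeks the difference of 45 from 4 weeks was -0.73, and without pool a it was 0.29, so that its direction rested on 1 pool.

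Grxcr2 gave the smallest p among the members. Its 4-week levels lay close to those of Y-linked Uty, 5.97 and 6.10, in the 2 pools with a dim Eif2s3y. Detection calls were not used, so these levels cannot be told from background here. Probe ILMN_1252942 averaged 6.43 ± 0.03 at 45 weeks and 6.07 ± 0.09 at 4 weeks (SD, n = 2 pools each), and 6.12 ± 0.11 at 15 weeks. Its arrays read 6.47, 6.36, 6.503 and 6.40 at 45 weeks, against 6.07, 6.02, 6.09 and 6.31 at 15 weeks and 6.22, 6.04, 5.97 and 6.05 at 4 weeks. Every 45-week array lay above every younger array. The difference was 0.36 from 4 weeks (1.29-fold, SE 0.12, 95% interval 0.08 to 0.65, limma adjusted p = 0.294) and 0.31 from 15 weeks (SE 0.12, adjusted p = 0.606). The second probe, ILMN_2985732, read 6.22 and 6.29 at 45 weeks, against 6.02 and 6.09 at 15 weeks and 6.18 and 6.17 at 4 weeks. It pointed the same way by 0.08 from 4 weeks and 0.19 from 15 weeks (limma adjusted p = 0.802 and 0.664), and its arrays overlapped.

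**Figure D2:**
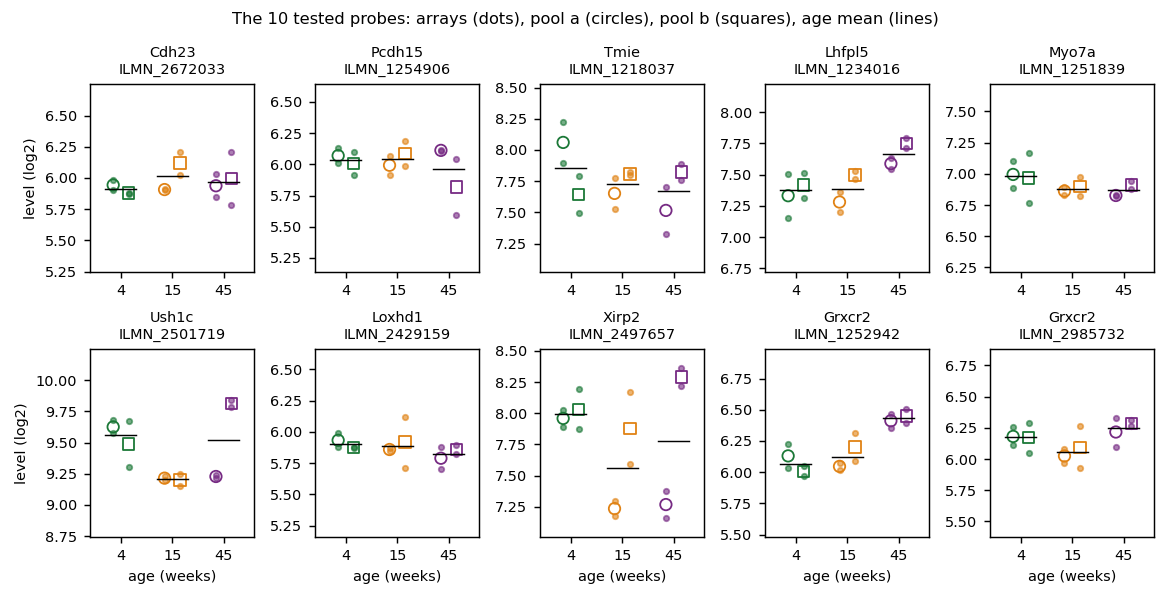
Log2 level (vertical axis, the same span of 1.5 log2 units in each panel) against age in weeks for the 10 tested probes, with arrays as dots, pool a as circles, pool b as squares and the age mean as a line. The 45-week readings of Lhfpl5 and of Grxcr2 probe ILMN_1252942 lie above all younger arrays, and the 45-week pools of Ush1c and Xirp2 lie far apart.

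Over the 10 tested probes, pools at 45 weeks lay wholly above those at 4 weeks for 3 probes (background 22.5%) and wholly below for 2 (background 22.5%). Between 45 and 15 weeks the counts were 4 above (background 19.8%) and 1 below (background 19.9%). The 1 below was Loxhd1, with pools as close as 5.8587 and 5.8592. Between 15 and 4 weeks they were 0 above (background 12.8%) and 4 below (background 13.6%), those 4 being probes of Myo7a, Ush1c, Xirp2 and Grxcr2. At the level of arrays, 2 of 10 probes, those of Lhfpl5 and Grxcr2, lay above all younger arrays at 45 weeks, where the background was 2.73%. These 2 probes were singled out after their values were seen. The range of the age means exceeded the largest gap between pools for 5 of 10 probes, against 31.3% of all tested probes. It exceeded the largest gaps between pools and between arrays of a pool for 1 of 10, against 12.6% of all.

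**Figure D3:**
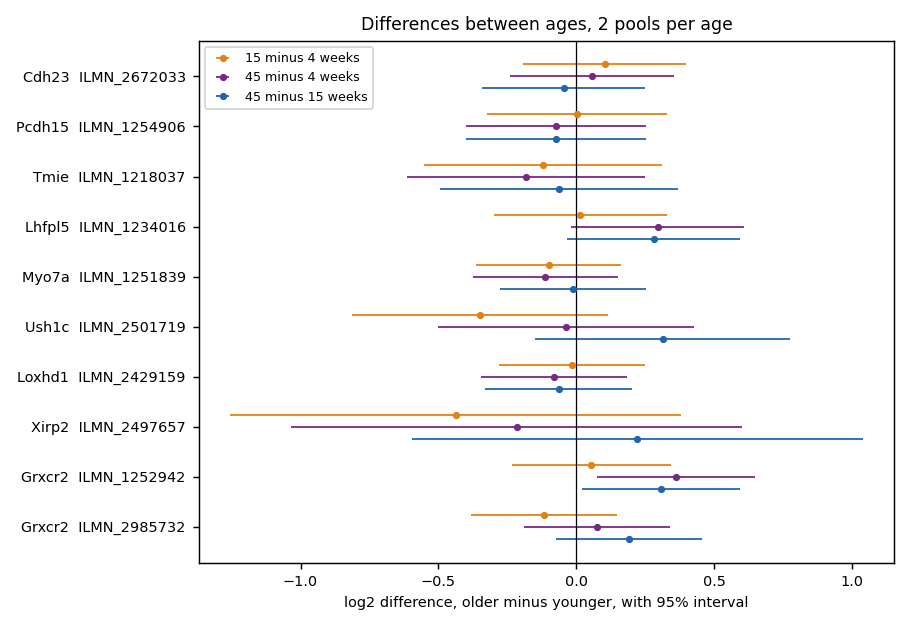
Log2 differences between ages, older minus younger (horizontal axis), for the 10 tested probes (rows) with limma's 95% intervals, from 2 pools per age. All intervals span 0 except those of Grxcr2 probe ILMN_1252942 for 45 minus 4 weeks (0.08 to 0.65) and 45 minus 15 weeks (0.02 to 0.59), which are not adjusted for the number of probes.

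Taking the brightest tested probe of each gene, the 9 members had a median difference of -0.07 between 45 and 4 weeks, -0.01 between 45 and 15 weeks and -0.02 between 15 and 4 weeks. Over all 12595 genes the medians were -0.02, -0.01 and -0.01. Of 32 other hair bundle genes listed, 27 were found in the annotation and 19 were tested. None passed over all probes in any comparison. At an unadjusted p under 0.05 there were 1 higher and 2 lower at 45 than at 4 weeks, 1 higher and 0 lower at 45 than at 15 weeks, and 0 higher and 1 lower at 15 than at 4 weeks. Tomt, which is needed to bring TMC1 to the bundle in mice, read 6.11 and 6.29 at 45 weeks, against 5.81 and 5.63 at 4 weeks (difference 0.48, SE 0.14, limma adjusted p = 0.277). Pls1, which encodes an actin bundling protein, read 8.15 and 8.24 at 45 weeks, against 8.68 and 8.77 at 4 weeks (difference -0.53, SE 0.13, adjusted p = 0.271). Triobp, whose product bundles actin in the stereociliary rootlet, differed by -0.36 (SE 0.12, adjusted p = 0.293). Cib3, a calcium-binding partner of the channel, differed by 0.56 between 45 and 15 weeks (SE 0.23, adjusted p = 0.606).

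The channel gene Tmc1 was measured at 7.28 and 7.06 at 4 weeks, 7.03 and 7.17 at 15 weeks and 6.90 and 7.17 at 45 weeks, and the ages overlapped. Of 15 hair cell body markers 14 were found and 11 tested, with 0 called in any comparison. The otoferlin gene Otof lay between 7.61 and 8.12 over the pools, and Cabp2, a calcium-binding protein gene of the hair cell synapse, between 7.91 and 9.09. The hair cell transcription factor gene Pou4f3 lay between 5.79 and 5.87 and the prestin gene Slc26a5 between 5.60 and 5.73, both below the level filter. Averaged over the 11 markers, pools stood at 7.85 and 7.69 at 4 weeks, 7.56 and 7.73 at 15 weeks and 7.84 and 7.80 at 45 weeks. Rasd2, a striatal GTPase gene also listed for hair cells, read lower at 45 than at 4 weeks by 0.40 (difference -0.40, SE 0.14, limma adjusted p = 0.306). Cabp2 read 8.99 and 9.09 at 45 weeks, against 8.50 and 8.19 at 4 weeks (difference 0.69, SE 0.23, limma adjusted p = 0.293). Ocm, the oncomodulin gene of outer hair cells, read 7.17 and 6.92 at 45 weeks, against 6.70 and 6.38 at 4 weeks (difference 0.51, SE 0.19, adjusted p = 0.325). For both genes the 45-week pools stood above the 4-week pools without overlap, as for Grxcr2 and Lhfpl5. The same held for 22.5% of all tested probes, and both genes were named for their small p in this comparison. Between 45 and 4 weeks the list as a whole did not share a higher reading. Of the 11 tested markers 5 pointed higher and 6 lower (median -0.04). Among the lower ones were Otof by -0.18, Chrna10 by -0.21, Gfi1 by -0.14 and Slc17a8 by -0.06. Between 45 and 15 weeks 8 pointed higher and 3 lower (median 0.14).

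Beside the 45-week readings of Grxcr2 and Lhfpl5 stood transcripts of another tissue. The mean of 5 tested pituitary hormone genes was 8.59 and 9.07 at 45 weeks, against 5.64 and 6.02 at 15 weeks and 5.91 and 5.68 at 4 weeks. Gh read 11.87 and 11.70 at 45 weeks and up to 7.18 in the younger pools. Of the 7 genes on that list, 2 (Fshb and Lhb) lay below the level filter. The part of that tissue in the readings of Grxcr2 and Lhfpl5 was not tested. Markers of supporting cells and otic epithelium had a mean level between 8.73 and 8.91 over the 6 pools, and melanocyte markers between 7.77 and 8.03.

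Xirp2 and skeletal muscle genes were both low in pool a at 15 and 45 weeks. The mean of 15 tested muscle markers, out of 17 listed, was 9.39 and 10.13 at 4 weeks, 8.37 and 9.80 at 15 weeks and 9.07 and 10.38 at 45 weeks. Between 15 and 4 weeks 0 of the 15 markers pointed higher, with a median difference of -0.64, and 0 were called. Pool b exceeded pool a at each age in both Xirp2 and the muscle mean. At 4 weeks, however, the Xirp2 pools read 7.96 and 8.03 with overlapping arrays, beside 9.39 and 10.13 for the muscle mean. Over the 6 pool means, the genes most like Xirp2 among 12594 were Cmya5, which encodes myospryn of striated muscle (r = 0.991), Atp2a1, the calcium pump gene of fast muscle (r = 0.983), Hspb6 (r = 0.975) and Mybpc2, a fast muscle myosin-binding protein gene (r = 0.970). Of the 15 muscle markers 11 stood among the 100 genes most like Xirp2, and 0 stood there for each other member. The same 100 genes held the hair cell genes Otof at rank 51 (r = 0.895) and Espn at rank 85 (r = 0.862). The muscle marker Casq1 lay below the level filter at 5.57. The part of muscle RNA in the level of Xirp2 was not tested.

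Some members stood near another bundle or hair cell gene over the pools, among many genes outside those lists. Among 12594 genes, Espn, which encodes the actin-bundling protein espin of stereocilia, ranked 1 in likeness to Ush1c (r = 0.980 over 6 pools), followed by Qpct (0.979), Chst5 (0.969), D630023F18Rik (0.967) and Klk7 (0.965), and Otof ranked 85 (r = 0.861). Espn read 9.22 and 9.13 at 4 weeks, 8.94 and 9.02 at 15 weeks and 8.975 and 9.41 at 45 weeks, so that its highest pool was again pool b at 45 weeks. For Tmie the closest were Fam204a (r = 0.985), Asb2 (0.984) and Spink2 (0.981), while Tmc1 ranked 7 of 12594 (r = 0.973) and Chrna10, a subunit gene of the efferent acetylcholine receptor of hair cells, ranked 22 (r = 0.915). Both Tmie and Tmc1 were highest in pool a at 4 weeks and lowest in pool a at 45 weeks. For Grxcr2 the closest were Snrpd2 (r = 0.991) and Npnt (0.988), while Cabp2 ranked 71 (r = 0.948) and Tomt 97 (r = 0.938). Of 30 bundle and hair cell genes, the 100 genes most like a member held 2 each for Ush1c, Tmie, Xirp2 and Grxcr2, 1 each for Pcdh15, Myo7a and Loxhd1, and 0 each for Cdh23 and Lhfpl5. These likenesses rest on 6 points that share tissue, dissection and normalization. For each of these 4 members between 10 and 64 genes exceeded r = 0.95. The comparison for single members was added after the values were seen.

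**Figure D4:**
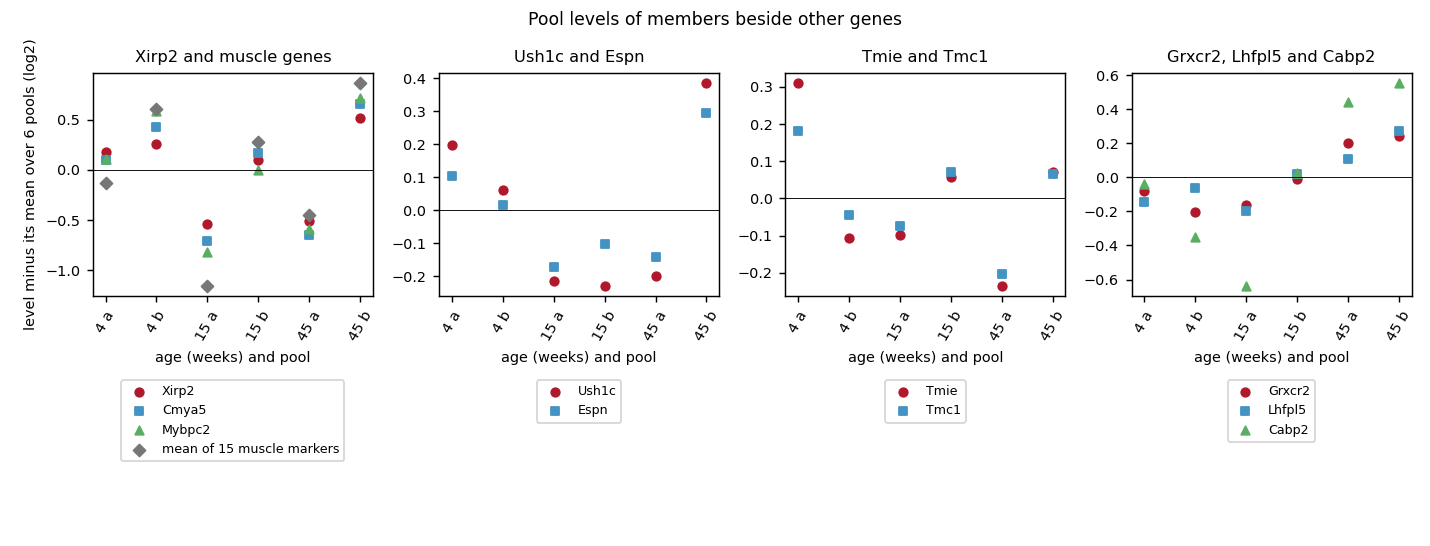
Pool levels minus the mean over the 6 pools (vertical axis, log2), with pools ordered by age in weeks and letter, for Xirp2 beside muscle genes, Ush1c beside Espn, Tmie beside Tmc1, and Grxcr2 and Lhfpl5 beside Cabp2. Xirp2 and the muscle genes are low in pool a at 15 and 45 weeks, Ush1c and Espn are highest in pool b at 45 weeks, and Tmie and Tmc1 are highest in pool a at 4 weeks.

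The members did not share 1 pattern over the pools. The correlation between pairs of members over 6 pools, given as a description, ran from -0.71 for Pcdh15 with Ush1c to 0.89 for Lhfpl5 with Grxcr2. Tmie with Loxhd1 had 0.85, Ush1c with Xirp2 had 0.80, Cdh23 with Pcdh15 had 0.06 and Tmie with Lhfpl5 had -0.15. The genes most like the mean pattern of the 9 members were Mrpl44 (r = 0.985), Cnksr3 (0.983), Ndufaf7 (0.976), Lmf2 (0.966) and Cpz (0.963) over the same 6 pools, none of them a listed hair cell gene. Among the 100 genes most like that mean were 6 of the 15 muscle markers and 4 of 30 bundle and hair cell genes. The mean was taken over centred levels that were not scaled, so members that vary widely between pools, Xirp2 above all, weigh most in it. For single members, 11 muscle markers stood among the 100 closest genes for Xirp2 and 0 for each other member.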

How the data were processed

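RNA of 6 cochlear pools was labelled as biotinylated cRNA and hybridised to Illumina mouse arrays, per the labels and the platform annotation. The deposited table holds log2 values of 45281 probes that the authors had normalized between arrays: sorted within an array, the values equal those of each other array (largest difference 0). The sources used here do not state the background correction or the software. Such normalization hides any shift common to most transcripts. A second table has 24 columns whose names match no sample and was not used.

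Probes were named from the platform annotation, which names 34885 probes with 1 symbol, 18 with several and 10378 with none, and 34807 were matched by gene number to RefSeq. All 20 member probes matched, but the only Lhfpl5 probe and the tested Loxhd1 probe carry no transcript record in the annotation. The 2 arrays of a pool were averaged. Probes with a mean above the median of all probe means (5.87) were tested, 22640 in all, 10 of them members'. One limma 3.58.1 model in R 4.3.3 over the 3 ages (lmFit, contrasts.fit, eBayes; degrees of freedom 3 residual, 3.84 prior) gave the difference of each older from each younger age. Benjamini-Hochberg adjustment covered all tested probes, with calls at an adjusted p under 0.05. Standard errors and 95% intervals come from the moderated fit. Precision is limited by the small number of pools. The fit was tested on simulated data with shifts larger than any member difference. That does not show whether differences of the members' size would be called.

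Likeness is Pearson's r over 6 pool means, on the brightest tested probe of a gene. The members and lists were chosen with earlier results of these data known. Besides the members, the text names genes of the bundle and hair cell lists with the smallest p, genes most like a member, and single markers chosen after their values were seen. Alternatives were testing every probe, a level filter at the 75th percentile of probe means, all 12 arrays with pools as random blocks, each technical array alone, a block for the replicate letter, single pools left out, a fit of 2 ages at a time, trended robust eBayes, array weights, cyclic loess, normexp with an offset of 16, and the mean over a member's probes.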

Additional observations from a re-analysis of the deposited data

How the results depend on the processing

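No alternative called a member probe. Over 519 refits of the 30 member differences under 18 settings the smallest adjusted p was 0.119 (Grxcr2, 45 minus 4 weeks, all 12 arrays with pools as random blocks). Of these refits 485 kept the direction and 34 reversed it. The first count is no measure of robustness, because many settings leave the difference itself unchanged. Other filters, the random block, the replicate block, array weights, trended robust eBayes and a fit of 2 ages could not reverse it. Nor could leaving out a pool of the third age. Calls over all probes, 0 in each comparison, became 183 for 45 minus 4 weeks, 6 for 45 minus 15 weeks and 2 for 15 minus 4 weeks with the random block. For 45 minus 4 weeks they became 1 with technical array 2 only, 1 with only the 2 ages, 2 with trended robust eBayes and 1 with normexp. For 45 minus 15 weeks they became 1 with technical array 2 only, 2 with trended robust eBayes and 2 with normexp. Leaving out a pool gave 0 to 12 calls for both, the 12 without pool b at 45 weeks. The cause was not tested.

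With technical array 1 only, 15 minus 4 weeks was -0.147 for Lhfpl5, 0.0663 for Loxhd1 and -0.0143 for Grxcr2, and Pcdh15 was 0.114 for 45 minus 4 and 0.0221 for 45 minus 15 weeks. With technical array 2 only, Pcdh15 was -0.0885 for 15 minus 4 weeks, Cdh23 -0.0184 and Ush1c 0.0214 for 45 minus 4 weeks, and Loxhd1 0.0191 for 45 minus 15 weeks. With the mean over probes Grxcr2 was -0.031 for 15 minus 4 weeks and Pcdh15 0.0246 for 45 minus 4 weeks. The cause was not tested.

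Without single pools, 15 minus 4 weeks ran from -0.00359 to 0.209 for Cdh23, -0.0446 to 0.048 for Pcdh15, -0.33 to 0.0856 for Tmie, -0.0929 to 0.123 for Lhfpl5, -0.045 to 0.0134 for Loxhd1 and -0.0225 to 0.132 for Grxcr2. For 45 minus 4 weeks the ranges were -0.22 to 0.0747 for Pcdh15, -0.391 to 0.0244 for Tmie, -0.329 to 0.256 for Ush1c and -0.726 to 0.294 for Xirp2. For 45 minus 15 weeks they were -0.152 to 0.0603 for Cdh23, -0.222 to 0.073 for Pcdh15, -0.215 to 0.0921 for Tmie, -0.0535 to 0.03 for Myo7a and -0.289 to 0.731 for Xirp2. A lone pool of an age is assumed to vary like the others.

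Whether the letters a and b pair pools across ages is not stated by the labels. Deviations of same-letter pools from their age means correlated at -0.11, 0.18 and -0.39 over probes, which does not settle it. With the replicate block 0 probes were called in each comparison, and Grxcr2 had an adjusted p of 0.372 for 45 minus 4 weeks.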
